A study of Homo sapiens with 24 samples.

Results

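Transcripts of 8 genes of the NF-kB inflammatory program were followed in 4 human cancer cell lines in normoxia and hypoxia. They are 6 secreted chemokines, CXCL1, CXCL2, CXCL3, CXCL5, IL8 (the symbol the count tables use for CXCL8) and CCL20, and 2 inhibitors of NF-kB that NF-kB itself induces, NFKBIA and TNFAIP3. The genes were selected by symbol, and 8 of 8 had a row among the 23106 gene symbols of each count table. The set was put together with earlier results of these libraries in view, and which values were looked at is not recorded, so the hypoxia changes of these 8 genes are given as a description, without p values, and are no independent evidence.

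RNA-seq of polyadenylated RNA was analyzed from A549 (lung cancer), HCT116 (colorectal cancer), PC3 (prostate cancer) and T47D (breast cancer) cells. Normoxic cells were kept in 21% oxygen and hypoxic cells in 0.5% oxygen for 16 h, with 3 libraries in each of the 8 groups and 24 in all. All were established, untransfected lines without a further agent or engineered allele in the labels. A549 and PC3 cells grew in F12K medium, HCT116 cells in McCoy's medium and T47D cells in DMEM, so a difference between lines cannot be told apart from a difference in medium except between A549 and PC3. The question that the design puts to these genes is whether their transcript levels differ between hypoxia and normoxia, and whether that difference varies with the cell line.

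NF-kB is a family of dimeric transcription factors held in the cytoplasm by IkB proteins. When cytokine receptors activate the IkB kinase complex, IkB is destroyed, NF-kB enters the nucleus, and chemokine genes are among its classical targets. It also switches on its own brakes: NFKBIA encodes IkB-alpha, which recaptures NF-kB, and TNFAIP3 encodes a ubiquitin-editing enzyme that shuts off signalling above the kinase complex. The CXCL chemokines of this set attract neutrophils through the receptors CXCR1 and CXCR2, and CCL20 attracts cells that carry CCR6. In carcinoma cells these chemokines are known as tumor-derived signals to neutrophils and blood vessels.

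Library totals ranged from 22698584 to 62850747 counts, so that the floor used here, 3 counts in a library, corresponded to 0.0450 to 0.123 CPM, the count scaled to library size after TMM normalization. Of 6 well known hypoxia-inducible genes used to check the labels (CA9, VEGFA, ADM, SLC2A1, PDK1 and ANKRD37), 6 were called higher in hypoxia in A549, HCT116 and T47D cells, and 5 in PC3 cells, with PDK1 the exception. ESR1, PGR, GATA3 and FOXA1 were abundant in T47D cells and CDX2 was present in HCT116 cells. The other line markers were weaker guides. NKX2-1 and the surfactant genes SFTPA1, SFTPB and SFTPC reached at most 6 counts in an A549 library, CDX1 was at 0 in HCT116 cells, and KLK2, KLK3 and FOLH1 were at 0 in PC3 cells. Leukocyte markers were checked because leukocytes make the same chemokines. PTPRC, the pan-leukocyte marker, reached at most 17 counts in any library and CD3E at most 4. The summed level of the 5 leukocyte markers nevertheless moved with hypoxia, from 5.26 to 6.21 CPM in normoxic HCT116 libraries to 15.5 to 42.3 CPM in hypoxic ones, and from 24.8 to 34.3 CPM to 41.7 to 43.8 CPM in A549 cells. This sum was nearly all CD68, a lysosomal protein that epithelial cells also make.

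The sequence just upstream of these genes is shown because each holds GGAATTTCC or a match to the NF-kB consensus. No motif searched for was found in all of them. On GRCh37 the 5 CXCL genes lie in one cluster on chromosome 4: IL8 at chr4:74606236-74609433 (plus strand), CXCL1 at chr4:74735110-74737025 (plus strand), CXCL5 at chr4:74861359-74864394 (minus strand), CXCL3 at chr4:74902306-74904524 (minus strand) and CXCL2 at chr4:74962757-74964913 (minus strand). CCL20 lies at chr2:228670455-228682280 (plus strand), NFKBIA at chr14:35870285-35873955 (minus strand) and TNFAIP3 at chr6:138188351-138204451 (plus strand). All are protein-coding. The stretches below lie within the 120 bases before the start of each gene's canonical transcript (GENCODE 44 on GRCh37), read from 5′ to 3′ on the gene's own strand, and leave out bases inside an annotated exon of a coding gene. They cover chr4:74734990-74735109 for CXCL1, chr4:74964914-74965032 for CXCL2, chr4:74864395-74864514 for CXCL5, chr4:74606166-74606235 for IL8, chr2:228678438-228678537 for CCL20, chr14:35873956-35874075 for NFKBIA and chr6:138188276-138188350 for TNFAIP3. For CXCL3 the 30 bases of chr4:74904465-74904494 are shown, since its match lies inside the first exon of another annotated transcript. Capitals mark GGAATTTCC or its reverse complement GGAAATTCC and, for CCL20 and TNFAIP3, which lack it, matches to the NF-kB consensus.
CXCL1: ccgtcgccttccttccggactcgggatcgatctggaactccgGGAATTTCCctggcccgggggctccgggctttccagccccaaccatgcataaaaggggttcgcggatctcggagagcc
CXCL2: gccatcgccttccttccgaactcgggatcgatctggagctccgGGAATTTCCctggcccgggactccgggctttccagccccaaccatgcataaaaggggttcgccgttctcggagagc
CXCL3: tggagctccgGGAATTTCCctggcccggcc
CXCL5: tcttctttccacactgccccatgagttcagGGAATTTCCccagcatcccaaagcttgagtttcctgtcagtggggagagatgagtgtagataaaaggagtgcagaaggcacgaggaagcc
IL8: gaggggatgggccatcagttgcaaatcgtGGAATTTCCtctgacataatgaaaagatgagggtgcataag
CCL20: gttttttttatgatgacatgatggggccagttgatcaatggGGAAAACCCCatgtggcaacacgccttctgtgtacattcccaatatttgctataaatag
NFKBIA: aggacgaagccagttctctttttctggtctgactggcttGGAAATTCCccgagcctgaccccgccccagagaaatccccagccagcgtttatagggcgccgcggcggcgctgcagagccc
TNFAIP3: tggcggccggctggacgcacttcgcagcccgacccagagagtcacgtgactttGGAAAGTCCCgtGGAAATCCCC

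The 9 letters GGAATTTCC, searched on both strands of the 250 bases before the start, occurred in 6 of the 8 genes and in 70 of 19862 such windows of protein-coding genes (0.352%). They began 78 bases before the start in CXCL1, 77 in CXCL2, 78 in CXCL3, 90 in CXCL5, 91 in IL8 and 81 in NFKBIA. The letters were chosen after these sequences had been seen, so the count is a description. The broader NF-kB consensus, which overlaps these letters in CXCL1, CXCL2, CXCL3, CXCL5 and NFKBIA, matched 7 of the 8 genes (not IL8) and 11.3% of all windows. The AP-1 motif TGANTCA was found in IL8 (4.7% of all windows). Of the core letters of the hypoxia response element, ACGTG was found in TNFAIP3 (20.5% of all windows), and GCGTG in CXCL5 and CCL20 (40.4% of all windows). CXCL1, CXCL2, CXCL3, IL8 and NFKBIA had neither in this window. A match is no evidence of binding, and a window without one says nothing of sites elsewhere.

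The order of the lines by chemokine level was not the same for each ligand. Normoxic IL8, a strong neutrophil attractant, was 854 ± 258 CPM (SD, n = 3) in PC3 cells, 5.25 ± 3.18 CPM in A549 cells and 2.34 ± 1.05 CPM in HCT116 cells, and 0 counts were seen in the 3 normoxic T47D libraries. PC3 cells thus had 163-fold the level of A549 cells, whereas A549 and HCT116 libraries overlapped. CXCL1 followed the same order, with 76.7 ± 6.83 CPM in normoxic PC3 cells, 3.62 ± 1.12 CPM in A549 cells and 0.350 ± 0.0528 CPM in HCT116 cells, and no overlap between neighbours in that order. CXCL5 had another order. It was highest in A549 cells at 283 ± 25.2 CPM, with 23.3 ± 2.65 CPM in PC3 cells, at most 12 counts in an HCT116 library and at most 1 count in a T47D library. CXCL2 and CXCL3 were low in every line, at most 4.50 ± 2.42 and 3.01 ± 1.27 CPM in the normoxic A549 group, and there the A549 and PC3 libraries overlapped.

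The inhibitors were present in all 4 lines. Normoxic NFKBIA was 78.2 ± 7.19 CPM in A549 cells and 74.8 ± 6.55 CPM in PC3 cells, which overlapped, above T47D cells at 47.01 ± 8.32 CPM and HCT116 cells at 17.4 ± 3.84 CPM. Normoxic TNFAIP3 fell into 4 separate levels, 47.1 ± 9.81 CPM in PC3, 6.31 ± 1.83 in A549, 2.71 ± 0.461 in HCT116 and 0.983 ± 0.327 CPM in T47D cells. T47D cells were therefore a line with both inhibitors and almost none of the chemokines of the set. No T47D library held more than 2 counts of CXCL1, 4 of CXCL3, 1 of CXCL5 or 1 of IL8, and CXCL2 reached 8 counts in normoxia replicate 2 and 0 in the other T47D libraries.

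Levels of different genes are compared here as CPM per kb of the canonical transcript. In normoxic PC3 cells the order was IL8 at 520.0 ± 157 CPM per kb, CXCL1 at 65.3 ± 5.82, NFKBIA at 48.0 ± 4.20, TNFAIP3 at 10.1 ± 2.10 and CXCL5 at 9.57 ± 1.09 CPM per kb, with CXCL3 and CXCL2 below 3 CPM per kb. In normoxic A549 cells CXCL5 led at 116 ± 10.3 CPM per kb, ahead of NFKBIA at 50.2 ± 4.61 CPM per kb, and the other ligands were between 2.80 and 4.04 CPM per kb apart from CCL20. The leading ligand was IL8 in PC3 cells and CXCL5 in A549 cells in both oxygen states.

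**Figure D1:**
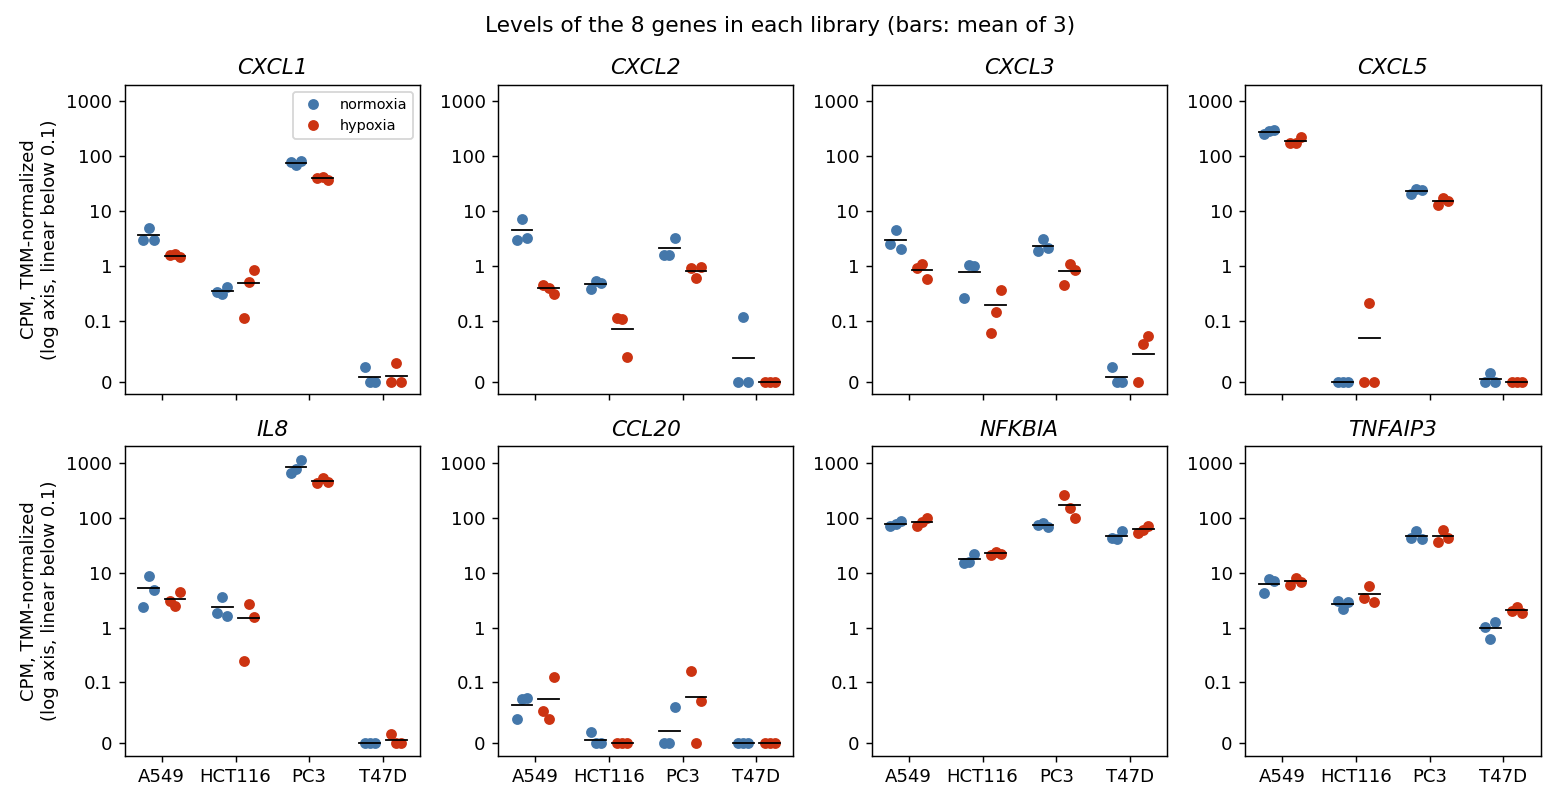
Level of each of the 8 genes in the 24 libraries, as TMM-normalized CPM on a log axis that is linear below 0.1 CPM, by cell line; blue points are normoxic and red points hypoxic libraries, and bars are means of 3. The CXCL points of PC3 and A549 cells sit lower in hypoxia except for IL8 in A549 cells. NFKBIA is raised in the hypoxic PC3 libraries, and T47D cells hold almost no counts of the chemokines of the set.

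In hypoxia, 5 of 5 tested CXCL chemokines were called lower in PC3 cells, 4 of 5 in A549 cells (not IL8) and 2 of 4 in HCT116 cells, and of the inhibitors NFKBIA was called higher in PC3 cells. A gene was called where edgeR's quasi-likelihood test over all genes of a line gave an adjusted p under 0.05 and the fold change was over 1.2. In PC3 cells 6 of the 7 tested genes were called, CXCL1, CXCL2, CXCL3, CXCL5 and IL8 lower and NFKBIA higher, where 32.3% of all 13466 tested genes were called, 15.7% lower and 16.6% higher. In A549 cells 4 of 7 were called, CXCL1, CXCL2, CXCL3 and CXCL5, all lower (background 35.5%, and 17.8% lower). In HCT116 cells 2 of 6 were called, CXCL2 and CXCL3, both lower (background 50.3%, and 27% lower). In T47D cells only NFKBIA and TNFAIP3 could be tested, and 0 of 2 were called by edgeR (background 13.2%, with 6.55% higher and 6.69% lower), with 1 at an unadjusted p under 0.05 and 1, TNFAIP3, called by DESeq2. CCL20 was tested in no line. Since the genes were chosen with earlier results of these libraries in view, nothing is read from the counts against the backgrounds. In bulk RNA, fewer cells making a transcript and less of it per cell cannot be told apart.

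The median log2 fold change of the tested genes of the set was −0.89 in PC3, −0.68 in A549, −0.18 in HCT116 and 0.72 in T47D cells, the last over the 2 inhibitors alone, against medians over all tested genes of −0.01, −0.01, −0.03 and −0.01. The 3 hypoxic and 3 normoxic libraries did not overlap for 6 of 7 genes in PC3 cells, 4 of 7 in A549 cells, 1 of 6 in HCT116 cells and 1 of 2 in T47D cells. Among all tested genes such separation was seen in 51.2% in PC3 cells (24.3% lower), 47.8% in A549 cells (24.6% lower), 60.2% in HCT116 cells (31.4% lower) and 31.8% in T47D cells (16.3% higher). In one fit of all 24 libraries, 2 of the 6 PC3 calls were kept, CXCL1 and NFKBIA, and the cause was not tested.

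CXCL1, a neutrophil attractant also known as a melanoma growth factor, had in PC3 cells 77.7, 69.4 and 82.9 CPM in the 3 normoxic libraries and 39.7, 42.9 and 37.8 CPM in the 3 hypoxic ones. The groups were well apart, and the log2 fold change of −0.96 ± 0.10 (SE) corresponds to a level 1.94-fold lower in hypoxia. A549 libraries had 2.98, 4.92 and 2.98 CPM in normoxia and 1.58, 1.64 and 1.45 CPM in hypoxia, a log2 fold change of −1.21 ± 0.27. In HCT116 cells the 7 to 29 counts per library gave 0.332, 0.309 and 0.410 CPM in normoxia and 0.113, 0.522 and 0.864 CPM in hypoxia. The hypoxic HCT116 libraries lay on both sides of the normoxic ones, and the gene was not called (0.40 ± 0.66); without hypoxia replicate 3 the value was −0.14.

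CXCL2 showed the largest fold change of the set. In A549 cells it stood at 2.96, 7.29 and 3.25 CPM in normoxia and at 0.457, 0.406 and 0.310 CPM in hypoxia. Every hypoxic library was far below every normoxic one, with a log2 fold change of −3.51 ± 0.40, or 11.4-fold lower. HCT116 cells had 0.387, 0.531 and 0.489 CPM in normoxia against 0.113, 0.108 and 0.0411 CPM in hypoxia (−2.30 ± 0.62), which rests on 21 to 31 counts against 1 to 7 counts per library. PC3 cells had 1.59, 1.59 and 3.29 CPM in normoxia and 0.916, 0.611 and 0.965 CPM in hypoxia (−1.40 ± 0.37). There the groups did not overlap, but the call was lost without hypoxia replicate 2 or without normoxia replicate 3.

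CXCL3, the third of these closely related ligands, was lower by −1.79 ± 0.36 on the log2 scale in A549 cells, from 2.49, 4.46 and 2.07 CPM to 0.914, 1.10 and 0.579 CPM. In PC3 cells it went from 1.88, 3.12 and 2.11 CPM to 0.458, 1.08 and 0.862 CPM (−1.59 ± 0.35). Neither pair of groups overlapped. The call in HCT116 cells (−2.14 ± 0.71) stood on weaker ground: normoxic libraries had 0.258, 1.04 and 1.01 CPM and hypoxic ones 0.0806, 0.144 and 0.370 CPM. Normoxia replicate 1 lay below hypoxia replicate 3, and the call was lost in 4 of the 6 fits that left out a library (hypoxia replicate 1 or 2, or normoxia replicate 2 or 3). CXCL1, CXCL2 and CXCL3 share sequence. Of the 50-base windows of their canonical transcripts, 5.33%, 10.1% and 5.26% recur in another of the 3. Fragments without a unique position were removed before counting, so reads that lie wholly in such windows could be dropped.

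CXCL5, an epithelial neutrophil attractant, had 256, 285 and 307 CPM in normoxic and 172, 177 and 222 CPM in hypoxic A549 libraries. The groups were separate at a small fold, −0.57 ± 0.12 on the log2 scale or 1.48-fold lower. PC3 cells showed a like change at a lower level, from 20.4, 25.5 and 24.1 CPM to 12.9, 17.8 and 15.1 CPM (−0.63 ± 0.14). Both calls were lost in the one fit of all 24 libraries. An annotated noncoding gene on the opposite strand overlaps CXCL5, and 12.7% of its 50-base windows recur in transcripts of other genes, mostly that one. The strand setting of the counting is not given in the sources used here, so reads of the pair may not be separable.

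IL8 had 643, 777 and 1142 CPM in the normoxic and 424, 521 and 456 CPM in the hypoxic PC3 libraries. All 3 hypoxic libraries were below the lowest normoxic one, and the log2 fold change was −0.89 ± 0.19, or 1.86-fold lower. In A549 cells the normoxic libraries themselves spread from 2.35 to 8.66 CPM, with 4.75 CPM in replicate 3, and the hypoxic ones had 3.06, 2.44 and 4.37 CPM. These groups overlapped and the gene was not called (−0.68 ± 0.38), but it was called lower without normoxia replicate 1 (−1.03). HCT116 libraries had 1.88, 3.54 and 1.59 CPM in normoxia and 0.242, 2.66 and 1.56 CPM in hypoxia, where replicate 1 stood apart, and the value of −0.70 ± 0.61 was not called. CCL20 had at most 7 counts in any library, in hypoxia replicate 1 of PC3 cells, and 0 counts in all T47D libraries. With at most 2 counts in normoxic PC3 libraries and 6 in hypoxic A549 libraries, a hypoxia difference in CCL20 was not detectable at this depth.

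NFKBIA changed in the opposite direction in PC3 cells. The normoxic PC3 libraries had 73.9, 81.7 and 68.7 CPM and the hypoxic ones 259, 153 and 99.0 CPM. Each hypoxic library was above each normoxic one, but the hypoxic libraries differed widely among themselves, and the log2 fold change of 1.17 ± 0.27 moved between 0.73 and 1.44 when 1 library was left out, without losing the call. In the other lines NFKBIA was not called. A549 cells had 71.5, 77.4 and 85.8 CPM in normoxia and 71.8, 82.7 and 98.8 CPM in hypoxia (0.11 ± 0.13, which turned to −0.0043 with scaling to total counts). HCT116 cells had 14.9, 15.5 and 21.9 against 20.9, 24.1 and 22.3 CPM (0.34 ± 0.20), and the gene was called higher there without normoxia replicate 3 (0.57). T47D cells had 42.4, 42.0 and 56.6 against 52.9, 60.7 and 72.1 CPM (0.37 ± 0.20). Normoxic and hypoxic libraries overlapped in these 3 lines.

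TNFAIP3 was called in no line by edgeR. In T47D cells, where it was lowest, the normoxic libraries had 1.04, 0.630 and 1.27 CPM and the hypoxic ones 2.01, 2.40 and 1.86 CPM. These groups did not overlap, and the log2 fold change of 1.07 ± 0.38 rests on 42 to 76 counts against 99 to 155 counts per library. DESeq2 and the one fit of all 24 libraries called it higher. PC3 cells, where TNFAIP3 was highest, had 42.0, 58.4 and 40.9 CPM in normoxia and 36.5, 60.4 and 43.8 CPM in hypoxia, with a log2 fold change of −0.03 ± 0.19 whose sign changed with the library left out. The values were 0.14 ± 0.23 in A549 cells, where the sign turned without normoxia replicate 1 (−0.09), and 0.54 ± 0.31 in HCT116 cells, and the libraries overlapped in both. The one fit of all 24 libraries called TNFAIP3 higher in HCT116 cells too (0.68). An annotated noncoding gene on the opposite strand overlaps TNFAIP3, with the same doubt over strand.

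**Figure D2:**
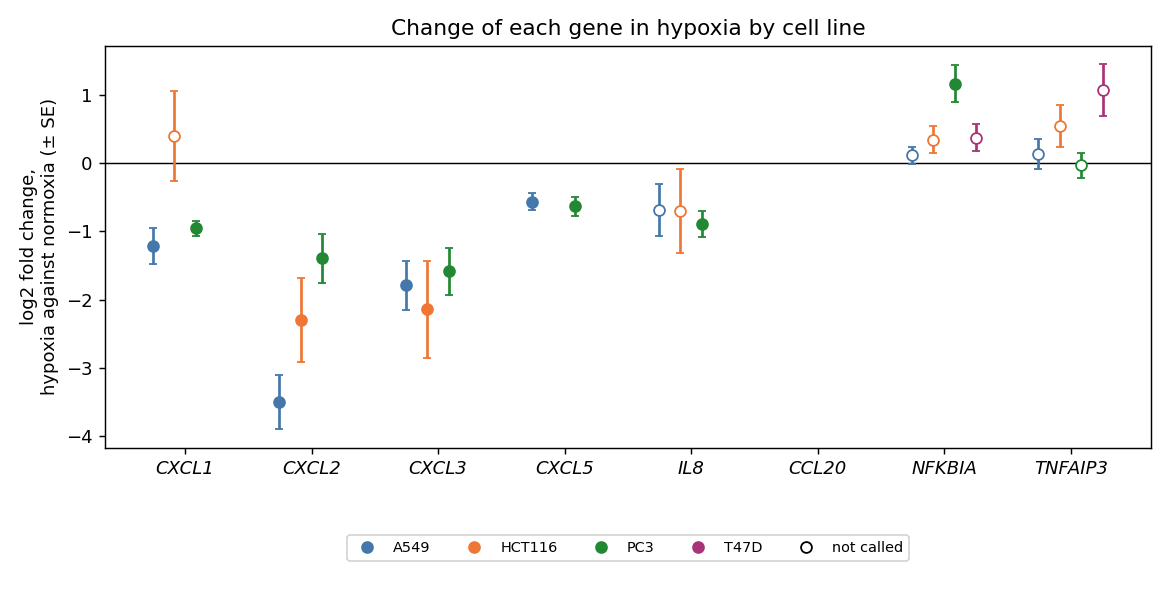
Log2 fold change in hypoxia against normoxia (± SE, 3 libraries a group) of each gene in each line where it could be tested; filled points were called by edgeR and open points were not. The 11 called ligand points lie between −0.57 and −3.51, and the inhibitor points lie between −0.03 and 1.17, with NFKBIA in PC3 cells the only one called.

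Whether the hypoxia change of a gene differed between lines was read from an edgeR fit with an interaction term of line and oxygen state over the 24 libraries, as a description for these genes. The adjusted p was under 0.05 for 0 of the 7 genes tested, 6 had an unadjusted p under 0.05, and 2 had an adjusted p under 0.05 once replicate numbers entered as a block. Among all 16089 genes tested the share under 0.05 was 18.3%. A call in one line and none in another, as for NFKBIA or IL8, is therefore not shown to be a difference between those lines.

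The deviations of each library from the mean of its line were used to describe how alike the genes moved over the 24 libraries, which share lines and oxygen states. Over the 10 pairs of CXCL genes Pearson's r ranged from −0.0010 (CXCL3 and CXCL5) to 0.63 (CXCL1 and CXCL3). It was 0.62 between CXCL1 and IL8, 0.39 between CXCL1 and CXCL2 and 0.17 between CXCL2 and CXCL5. It was between −0.43 and −0.09 for NFKBIA against each CXCL gene. Of 13257 genes with a mean of at least 1 CPM, the 5 most like IL8 were C10orf55 (r = 0.90), SDCCAG8 (0.78), C16orf52 (0.76), BIRC3 (0.75) and LOC100506710 (0.75). C10orf55 lies on the strand opposite to PLAU and overlaps it, so that part of its counts may be reads of PLAU. The 5 most like NFKBIA were PI4KB (0.85), DUSP10 (0.85), GNE (0.85), PPM1D (0.84) and ACP6 (0.84). DUSP10, a phosphatase that acts on stress-activated kinases, had 5.95 CPM in normoxic and 20.0 CPM in hypoxic PC3 cells.

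The chromosome 4 cluster also holds genes outside the set. Within a window of 400 kb on either side, chosen after the data had been seen, the changes did not all point one way. CXCL6, a chemokine gene between IL8 and CXCL1, had 48.8 CPM in normoxic and 61.7 CPM in hypoxic PC3 cells and was not called (0.31 ± 0.17). MTHFD2L, a mitochondrial folate enzyme gene that starts next to CXCL2, 374 kb from the start of IL8, fell in HCT116 cells (−2.37 ± 0.28), A549 cells (−1.06 ± 0.23) and PC3 cells (−0.82 ± 0.28), although the PC3 call was lost in 5 of the 6 fits without a library, all but that without normoxia replicate 2. RASSF6, on the other side of IL8, fell in HCT116 cells (−1.14 ± 0.34) and A549 cells (−0.93 ± 0.29), and these calls were lost in 2 of 6 such fits (without hypoxia replicate 1 or normoxia replicate 2) and in 4 of 6 (without hypoxia replicate 2 or 3 or normoxia replicate 1 or 2). The PC3 call of MTHFD2L and the A549 call of RASSF6 were also lost in the one fit of all 24 libraries.

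Farther out lie 3 genes for ligands of the epidermal growth factor receptor family. EPGN fell in PC3 cells from 119 to 30.5 CPM (−1.99 ± 0.14). EREG fell in A549 cells from 180 to 82.9 CPM (−1.12 ± 0.21), and it was not called in HCT116 cells, where it was most abundant, at 1118 CPM in normoxia and 1038 CPM in hypoxia. AREG fell in A549 cells (−0.76 ± 0.18) and rose in HCT116 cells (0.61 ± 0.22). Both calls were lost in the one fit of all 24 libraries, and that in HCT116 cells also without hypoxia replicate 2 or normoxia replicate 3. No T47D gene of the window was called.

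**Figure D3:**
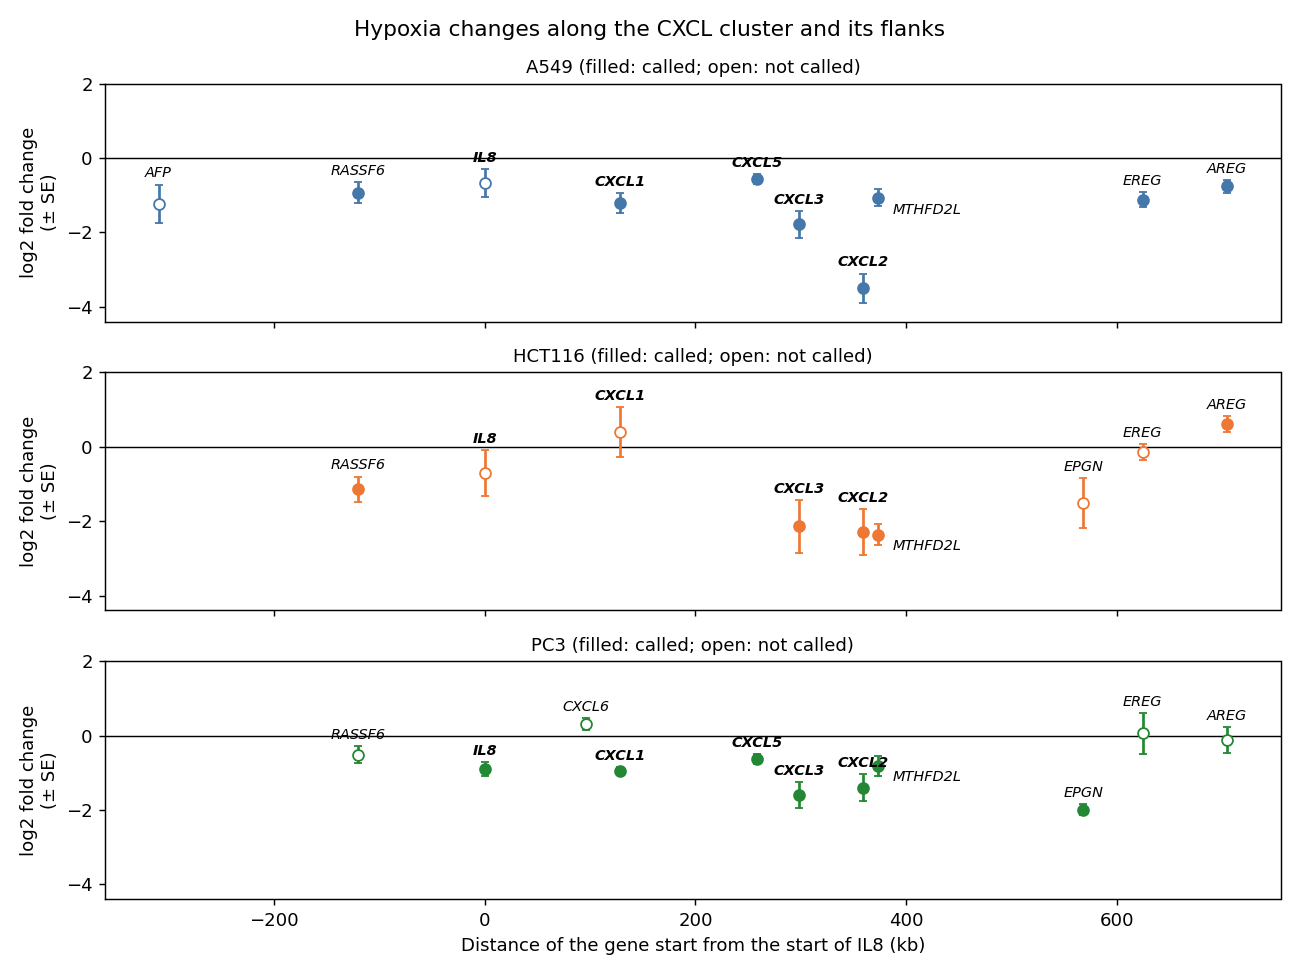
Log2 fold change in hypoxia (± SE) of the tested genes along the chromosome 4 cluster, by distance of each gene's start from the start of IL8 in kb, in A549, HCT116 and PC3 cells; bold names are genes of the set, filled points were called. In A549 cells called genes of the cluster and both flanks lie below 0, whereas in PC3 cells CXCL6, EREG and AREG are near 0 or above it and EPGN lies at −1.99.

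Other NF-kB pathway genes were examined in 5 lists, with the chemokine receptors as another. These lists too were chosen with earlier results known, so the p values given for their genes are descriptive and no independent evidence. Some of the genes are named because their changes were among the largest in these same fits. Over all lists, 23 of 64 tested genes were called in A549 cells (14 higher, 9 lower), 27 of 59 in HCT116 cells (16 higher, 11 lower), 18 of 62 in PC3 cells (10 higher, 8 lower) and 7 of 60 in T47D cells (4 higher, 3 lower). These shares of 35.9%, 45.8%, 29.03% and 11.7% stood near the backgrounds given above. Their median log2 fold changes were 0.02, 0.13, 0.00 and 0.00. The split of directions depended on scaling in 2 lines: with scaling to total counts, which lowers the median of all genes by about 0.1 on the log2 scale, it was 8 higher and 11 lower in A549 cells and 1 higher and 4 lower in T47D cells. In the one fit of all 24 libraries 3 pathway genes were called in PC3 cells, and of the PC3 changes named below that fit called only those of OTUD7B, CCL26 and IL6.

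Among the 8 NF-kB subunit and kinase genes, 6 were called in HCT116 cells (4 higher, 2 lower) and 3 in A549 cells (2 higher, 1 lower). In each of PC3 and T47D cells 1 was called, lower. The shares of all tested genes called were 50.3% in HCT116, 35.5% in A549, 32.3% in PC3 and 13.2% in T47D cells. CHUK, which encodes a catalytic subunit of the IkB kinase complex, fell in all 4 lines: from 67.0 ± 6.57 to 46.3 ± 4.95 CPM in A549 cells (log2 −0.53 ± 0.12, edgeR adjusted p = 0.00484), from 143 ± 10.9 to 67.2 ± 11.99 CPM in HCT116 cells (−1.12 ± 0.20, adjusted p = 0.000682), by −0.39 ± 0.08 in PC3 cells (adjusted p = 0.00901) and by −0.71 ± 0.21 in T47D cells (adjusted p = 0.0428). The T47D call was lost without either hypoxia or normoxia replicate 1 or 2. RELA, the main activating subunit, rose in A549 cells (0.54 ± 0.12, edgeR adjusted p = 0.0048) and in HCT116 cells from 47.4 ± 10.2 to 111 ± 11.6 CPM (1.2 ± 0.20, adjusted p = 0.000442). NFKB2, the precursor subunit of the alternative pathway, rose in HCT116 cells from 50.1 ± 3.49 to 134 ± 51.2 CPM (1.38 ± 0.24, edgeR adjusted p = 0.000595) and had log2 fold changes between −0.23 and 0.40 in the other lines.

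The list of other IkB proteins and restraining factors had 9 of 13 genes called in A549 cells (5 higher, 4 lower). In HCT116 cells 7 of 13 were called (5 higher, 2 lower), in PC3 cells 5 of 13 (3 higher, 2 lower) and in T47D cells 1 of 13, higher. Of all tested genes, 35.5%, 50.3%, 32.3% and 13.2% were called in that order of lines. TNIP1, a binding partner of the TNFAIP3 protein that dampens NF-kB, rose in all 4 lines. Its level went from 171 ± 19.9 to 405 ± 30.4 CPM in A549 cells, from 23.9 ± 6.53 to 135 ± 15.2 CPM in HCT116 cells, from 188 ± 34.5 to 274 ± 24.8 CPM in PC3 cells and from 84.3 ± 17.2 to 202 ± 15.1 CPM in T47D cells. The log2 fold changes were 1.25 ± 0.12, 2.48 ± 0.22, 0.52 ± 0.13 and 1.24 ± 0.21 in that order, with edgeR adjusted p between 1.97e-05 and 0.0146. The PC3 call was lost without hypoxia replicate 2 or normoxia replicate 1, and the T47D call without normoxia replicate 1. TNIP1 belongs to the study's conserved hypoxia gene set, which was chosen partly on these libraries, so its direction is not independent evidence. BCL3, a nuclear IkB family member, rose in A549 (0.39 ± 0.14), HCT116 (1.69 ± 0.31) and PC3 cells (0.78 ± 0.15), and OTUD7B, a deubiquitinase that restrains the alternative pathway, in the same 3 lines (0.46 ± 0.16, 1.01 ± 0.23 and 0.82 ± 0.15). Both A549 calls were lost with scaling to total counts, in the one fit of all 24 libraries, without hypoxia replicate 1 and without normoxia replicate 1 or 2, and that of OTUD7B also without hypoxia replicate 2. NFKBIZ, an inducible nuclear IkB protein, fell in HCT116 cells from 6.99 ± 2.01 to 1.505 ± 0.384 CPM (−2.26 ± 0.33, edgeR adjusted p = 0.000209) and in PC3 cells (−0.64 ± 0.17, adjusted p = 0.0171), where the call was lost without hypoxia replicate 2 or 3 or normoxia replicate 1.

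Upstream of NF-kB, 6 of 18 cytokine, receptor and adaptor genes were called in A549 cells (3 higher, 3 lower). In HCT116 cells 6 of 18 were called (3 higher, 3 lower), in PC3 cells 4 of 19 (3 higher, 1 lower) and in T47D cells 1 of 18, lower. The backgrounds over all tested genes were 35.5%, 50.3%, 32.3% and 13.2% in that order. TRAF5, an adaptor of tumor necrosis factor receptors, fell in A549 (−0.64 ± 0.17), HCT116 (−1.25 ± 0.22) and PC3 cells (−0.59 ± 0.20), although the A549 call was lost without normoxia replicate 2 and the PC3 call in each fit without a library except that without normoxia replicate 2. IRAK4, the kinase next to the interleukin-1 receptor, fell in HCT116 cells from 25.0 ± 5.23 to 8.66 ± 1.35 CPM (−1.56 ± 0.23, edgeR adjusted p = 0.000206) and in T47D cells (−0.78 ± 0.20, adjusted p = 0.0261), the latter call being lost without hypoxia or normoxia replicate 1 or 2. IL1RAP, the accessory chain of that receptor, rose in A549 (0.57 ± 0.14) and HCT116 cells (1.54 ± 0.38). The A549 calls of TRAF5 and IL1RAP were lost in the one fit of all 24 libraries.

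Receptors of these chemokines were nearly absent. Of the 3 with a row, none was tested in A549 or PC3 cells, and CCR6 fell in HCT116 cells from 0.371 ± 0.0843 to 0.0996 ± 0.128 CPM (−2.32 ± 0.85). That call rests on a mean of 11.3 counts per library, and the hypoxic SD exceeded the hypoxic mean. In T47D cells CCR6 was tested and not called (−0.86 ± 0.62), at a mean of 11.2 counts per library. Of the 19 other chemokines, 2 to 5 could be tested per line. In A549 cells 0 of 5 were called by edgeR, and 0 had an unadjusted p under 0.05 or a call by DESeq2. In HCT116 cells 1 of 2 was called, in PC3 cells 1 of 4 and in T47D cells 2 of 5. The backgrounds over all tested genes were 35.5% in A549, 50.3% in HCT116, 32.3% in PC3 and 13.2% in T47D cells. CCL26 rose in PC3 cells from 1.06 ± 0.380 to 3.70 ± 2.59 CPM (1.75 ± 0.47, edgeR adjusted p = 0.0192), a call lost without hypoxia replicate 1 or normoxia replicate 1. CCL28, an epithelial chemokine, fell in T47D cells from 23.9 ± 2.13 to 12.6 ± 2.67 CPM (−0.96 ± 0.22, edgeR adjusted p = 0.0148), and that call was lost in the one fit of all 24 libraries and without hypoxia replicate 1 or normoxia replicate 1 or 2.

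Other NF-kB target genes were called in both directions in 3 lines. In PC3 cells 7 of 18 were called (38.9%; 3 higher, 4 lower), in A549 cells 5 of 20 (25%; 4 higher, 1 lower), in HCT116 cells 6 of 17 (35.3%; 3 higher, 3 lower) and in T47D cells 2 of 15 (13.3%), both higher. The shares of all tested genes called were 32.3%, 35.5%, 50.3% and 13.2% in that order. ICAM1, an adhesion molecule for leukocytes, rose in all 4 lines: from 1.40 ± 0.327 to 3.93 ± 0.900 CPM in A549 cells (1.49 ± 0.27), from 3.83 ± 0.705 to 6.76 ± 0.913 CPM in HCT116 cells (0.79 ± 0.25), from 58.7 ± 12.1 to 86.6 ± 13.7 CPM in PC3 cells (0.54 ± 0.15) and from 1.35 ± 0.423 to 3.49 ± 0.994 CPM in T47D cells (1.33 ± 0.37). The edgeR adjusted p values were between 0.00181 and 0.0333. The T47D call was lost with scaling to total counts and in 4 of 6 fits without a library, those without hypoxia or normoxia replicate 1 or 2. The PC3 call was lost without hypoxia replicate 2 or normoxia replicate 1, and the HCT116 call without hypoxia replicate 3. IL6, a cytokine that NF-kB induces together with IL8, fell in PC3 cells from 4.66 ± 0.883 to 1.36 ± 0.137 CPM (−1.80 ± 0.21, edgeR adjusted p = 0.00105). In A549 cells IL6 had 0.0875 ± 0.0843 CPM in normoxia and 0.335 ± 0.109 CPM in hypoxia and was not called. TRAF1 fell in HCT116 cells from 1.80 ± 0.464 to 0.606 ± 0.177 CPM (−1.56 ± 0.42, edgeR adjusted p = 0.00813).

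**Figure D4:**
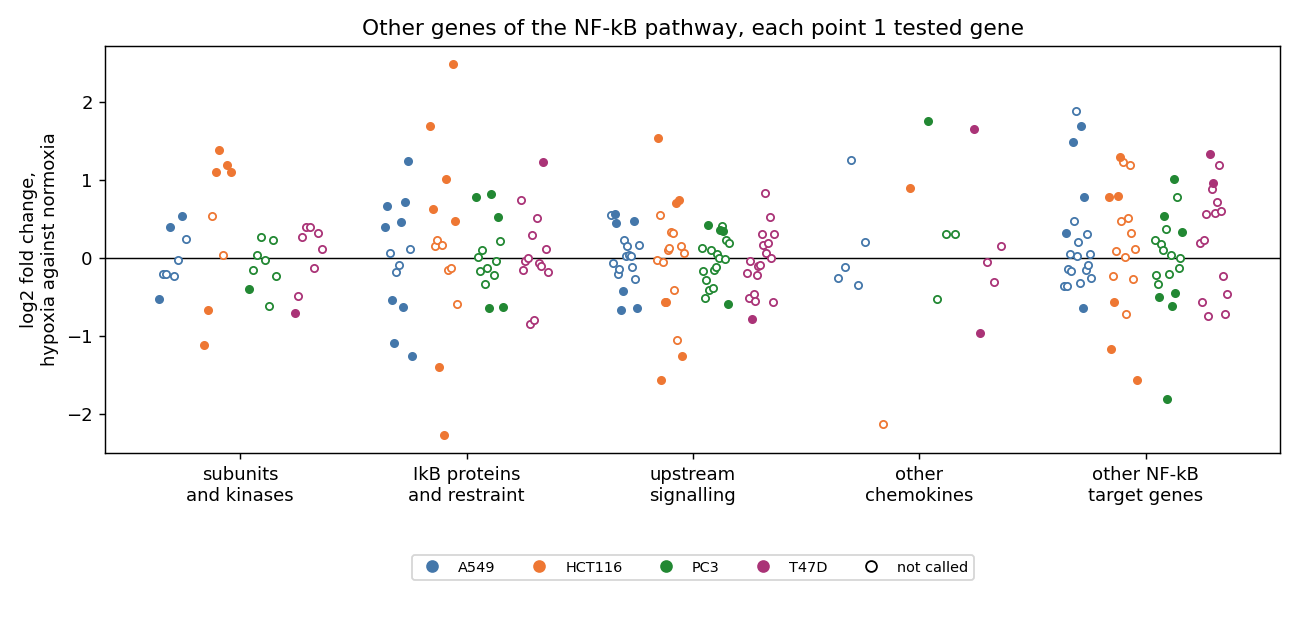
Log2 fold change in hypoxia of each tested gene of 5 lists of other NF-kB pathway genes, by cell line; filled points were called by edgeR and open points were not. Called points lie on both sides of 0 in most lists, and HCT116 cells show the widest spread, from −2.26 for NFKBIZ to 2.48 for TNIP1.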

How the data were processed

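The authors trimmed reads of directional polyadenylated RNA libraries with Trim Galore 0.3.3, aligned them to GRCh37 with HISAT2 2.05, removed fragments without a unique position with Picard 2.0.1 and counted reads per UCSC gene with HTSeq 0.5.4p3 in intersection-strict mode, and the deposited counts are whole numbers without normalization. Removal of non-unique fragments can lower counts of near-identical genes. Groups and replicate numbers came from the labels, which do not say that replicates were separate cultures, so p values measure the spread between these libraries, which may be technical.

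Computed here: edgeR 4.0.16 in R 4.3.3 (filterByExpr, TMM, glmQLFit and glmQLFTest) in a fit for each line, with Benjamini-Hochberg adjustment over all genes tested. Levels are CPM with 1 TMM normalization over the 24 libraries, and SD and n refer to 3 libraries. Log2 CPM for correlations used a prior count of 2. The floor of 3 counts covers counting error only. Alternatives were a DESeq2 1.42.0 test, scaling by RLE or by total counts, testing without a filter, a block for the replicate number, a joint fit of the 24 libraries and leaving out each library. Fits were tested on simulated counts.

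The 8 genes and the pathway lists were chosen with earlier results of these data known. Pathway genes are named where called in at least 3 lines or in opposite directions in 2, or where among the 2 largest changes of a list at a mean of at least 50 counts. CCR6, neighbours of the cluster, DUSP10 and PLAU were named after their values were seen. Each member list, motif and window follows GENCODE 44 on GRCh37, and IL8 was matched through its current symbol CXCL8.

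Same-numbered libraries of the 2 oxygen states share a number in the labels only. In T47D cells their deviations from the group means correlated over 0.1 for all 3 numbers (0.15, 0.33 and 0.30). There the numbers were taken to pair the libraries. The main fits used no block in any line, T47D included, so the T47D standard errors and p values above leave this pairing out. With the replicate block the T47D calls of CHUK, TNIP1, ICAM1, IRAK4 and CCL28 were kept.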

Additional observations from a re-analysis of the deposited data

Results flagged for a closer look

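For 9 of the pathway genes named above, a test for a difference of the hypoxia change between lines had an adjusted p under 0.05. This was read from an interaction term of line and oxygen state in an edgeR fit over the 24 libraries. Of the 72 genes of the pathway lists tested there, 14 passed an adjusted p of 0.05, beside 18.3% of all 16089 genes tested. These shares were alike, and nothing is read from the count. RELB, TNFRSF1A, CXCL16, IRF1 and CD83 were the others that passed. For TNIP1 (interaction adjusted p = 0.000126) all 4 lines rose, with log2 fold changes from 0.52 in PC3 to 2.48 in HCT116 cells. NFKB2 (0.000819) and RELA (0.0119) rose most in HCT116 cells, at 1.38 and 1.2. BCL3 (0.0393) ranged from 0.39 in A549 to 1.69 in HCT116 cells. IL1RAP (0.00318) was 1.54 in HCT116 and −0.51 in T47D cells, the latter not called. IRAK4 (0.0141) was −1.56 in HCT116 and −0.20 in A549 cells, the latter not called. IL6 (0.0141) was −1.80 in PC3 and 1.89 in A549 cells, the latter not called, at a mean of 10.8 counts per library. CCL26 (0.0269) was 1.75 in PC3 and −2.13 in HCT116 cells, the latter not called, at a mean of 9.83 counts. CCL28 (0.0458) was −0.96 in T47D and 1.25 in A549 cells, the latter not called, at a mean of 11.3 counts. In the line fits IL6 could be tested in 2 lines, and CCL26 and CCL28 in 3 each. The interaction values in brackets are adjusted p values of edgeR's quasi-likelihood test over all genes. The lists were chosen with earlier results known. The 9 genes were named by their calls or large changes in line fits of these same libraries. Passing the interaction test follows in part from that choice, so these p values are a description.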

How the results depend on the processing

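Of 132 refits of the members under 6 other settings, 121 kept direction and side of the threshold. In one fit of all 24 libraries, the genes of the set called went from 2 to 4 in HCT116, from 6 to 2 in PC3 and from 0 to 2 in T47D cells, and the pathway genes called from 23 to 13 in A549, from 18 to 3 in PC3 and from 7 to 15 in T47D cells; the cause was not tested. That fit and the unfiltered one also called CXCL5 higher in HCT116 cells, from 12 counts in 1 library, and that fit called TNFAIP3 higher in HCT116 and T47D cells and CXCL2 lower in T47D cells, the last from 8 counts in 1 library. DESeq2 called 1 gene of the set in T47D cells. The reversed values were −0.0043 for NFKBIA in A549 cells with scaling to total counts and 0.021 for TNFAIP3 in PC3 cells in the one fit. Leaving out 1 library gave 4 to 5 genes of the set called in A549, 1 to 2 in HCT116, 5 to 6 in PC3 and 0 to 0 in T47D cells, and 14 to 25, 22 to 27, 10 to 23 and 0 to 11 pathway genes. It reversed TNFAIP3 in A549 (−0.086 to 0.31) and PC3 cells (−0.25 to 0.15) and CXCL1 in HCT116 cells (−0.14 to 0.98).

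With the replicate block, 4, 3, 6 and 0 genes of the set and 24, 32, 22 and 9 pathway genes were called in the same order of lines, the third in HCT116 cells being IL8 (−1.01), and 24 pathway genes in place of 14 passed the interaction test. Same-numbered libraries correlated at 0.08 to 0.21 in A549, 0.07 to 0.29 in HCT116 and 0.08 in PC3 cells. In none of these lines was r over 0.1 for all 3 numbers, so pairs were not assumed there. Whether the libraries of these lines are pairs was not tested. Every hypoxic library correlated best with its own number except A549 replicate 2. In T47D cells, where the numbers were taken as pairs, the block changed no call of the set. Some calls were lost in 3 to 5 of the 6 fits that left out a library. They were CXCL3 in HCT116 cells, TRAF5, NFKBIZ and MTHFD2L in PC3 cells, and OTUD7B, BCL3 and RASSF6 in A549 cells. In T47D cells they were CHUK, ICAM1, IRAK4 and CCL28. Depth limits CCL20 in all lines and the CXCL genes of the set in T47D cells, which stayed near the floor.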
